A study of Arabidopsis thaliana with 74 samples.

Results

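The trans-acting siRNA genes TAS1A (AT2G27400), TAS1B (AT1G50055), TAS1C (AT2G39675), TAS2 (AT2G39681) and TAS3 (AT3G17185) of Arabidopsis thaliana were described by the small RNA counts of the 200-bp windows that overlap them. Windows were assigned to the genes by position alone. Sums were taken over 30 non-overlapping windows out of 594835 in the genome, and the profile along each gene over 115 overlapping windows in 50-bp steps. Small RNA had been sequenced from aerial rosettes harvested 27 d after sowing from 36 epiHybrids, their 36 paternal epiRILs and 2 maternal msCol plants, 74 libraries in all. An epiRIL is an inbred line in Col background that carries a mosaic of hypomethylated haplotypes inherited from a ddm1-2 mutant founder, and the mutant ddm1-2 allele itself was removed when the lines were made. msCol is a male-sterile Col line whose ms1 allele and the sequence around it on chromosome 5 come from Ler. An epiHybrid is the F1 of msCol and the epiRIL with the same family number. Each library is a pool of rosettes of 1 line, so that among epiHybrids and epiRILs the lines, not plants of a line, are the replicates. The 2 msCol libraries belong to 1 line and go back to 2 of its plants.

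TAS transcripts are non-coding RNAs that are cut by a microRNA-guided ARGONAUTE protein, copied into double-stranded RNA by RDR6 with SGS3, and diced by DCL4 in steps of 21 nt from the cut. The resulting trans-acting siRNAs (tasiRNAs) act on other transcripts in the way microRNAs do. TAS1 and TAS2 are cut under the guidance of miR173, and their siRNAs act mainly on mRNAs of pentatricopeptide repeat (PPR) proteins. TAS3 carries a pair of sites for miR390, which is held by AGO7, and its siRNAs (tasiR-ARFs) act on the auxin response factors ARF2, ARF3 and ARF4, with a known role in leaf polarity and the timing of leaf phases. The pathway does not need the DNA methylation machinery that ddm1 disturbs.

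The sequences that set where the siRNAs begin are shown first, because the counts along the genes are read against them. All were taken from the TAIR10 assembly and its RefSeq annotation, in which all 5 genes are annotated as non-coding RNA. In the mature microRNAs the capitals mark the seed, bases 2 to 8. miR173-5p lies at chr3:8236161-8236182 and miR390a-5p at chr2:16061971-16061991, both on the plus strand. The mature sequence of miR390b-5p (chr5:23636961-23636981) is the same as that of miR390a-5p.
miR173-5p: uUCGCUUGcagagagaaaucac
miR390a-5p: aAGCUCAGgagggauagcgcc

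In the target sites below, written as RNA on the strand of the transcript, capitals mark bases that form Watson-Crick pairs with the microRNA. The best site for miR173-5p in TAS1A lies at chr2:11722081-11722102, in TAS1B at chr1:18549660-18549681, in TAS1C at chr2:16537890-16537911 and in TAS2 at chr2:16539991-16540012, all on the minus strand. TAS3 (plus strand) has a 5′ site at chr3:5862099-5862119 and a 3′ site at chr3:5862343-5862363.
TAS1A miR173 site: GUGAUUUuUCUCUaCAAGCGAA
TAS1B miR173 site: GUGAUUUuUCUCaaCAAGCGAA
TAS1C miR173 site: GUGAUUUuUCUCUaCAAGCGAA
TAS2 miR173 site: GUGAUUUuUCUCUcCAAGCGAA
TAS3 5′ miR390 site: GGuGuUAUCCuauCUGAGCUU
TAS3 3′ miR390 site: uuguCUAUCCCUCCUGAGCUa

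The miR173 site was the same in TAS1A and TAS1C, with 1 mismatch, that of TAS2 also had 1 mismatch, and that of TAS1B had 2 mismatches. Each site also held 1 G:U pair. The next best match in any of these 4 genes had at least 5 mismatches. For TAS3 the 3′ site, at which the transcript is known to be cut, had 5 mismatches and no G:U pair, and the 5′ site had 1 mismatch and 4 G:U pairs.

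Counted back from the predicted cut in the 3′ site in steps of 21 nt, the TAS3 registers 7 and 8 were the closest of 14 to the ARF genes. They lie at chr3:5862207-5862227 and chr3:5862186-5862206, and the capitals mark bases that pair with the ARF2 site. The true phase can be shifted by a base from this count, since the files give no read ends. The sites shown for ARF2 (chr5:24913260-24913280, plus strand), ARF3 (chr2:14325943-14325963, minus strand) and ARF4 (chr5:24309509-24309529, minus strand) lie in coding exons, and there the capitals mark bases that pair with register 8.
TAS3 register 7: UCUUGACCUUGuAAGACCCca
TAS3 register 8: UCUUGACCUUGuAAGgCCuUU
ARF2 site: AAgGGuCUUgCAAGGUCAAGA
ARF3 site: gAgGGuCUUgCAAGGUCAAGA
ARF4 site: AAgGGuCUUgCAAGGUCAAGA

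Scoring a mismatch as 1 and a G:U pair as 0.5, registers 7 and 8 reached 1.5 to 2.5 against the ARF genes, and the next register reached 4.5. This is a match of letters in the genome. The deposited counts are not separated by read length or sequence, so that no single tasiRNA was measured.

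The libraries were of even depth, with 20995764 to 27084303 counts in non-overlapping CHH windows (median 25585062 in epiHybrids and 25885475 in epiRILs). By their counts, 35 of 36 F1 libraries had the father of the same family number as the most similar epiRIL. Around the MS1 gene, where msCol differs from Col, the libraries of families 12 and 568 stood in the opposite order to their labels, and the other 34 families stood in the order of the labels. Both families were kept under their labels, and results without them are given. Small RNA counts hold no leaf marker mRNAs, so the tissue label was not checked. Reads shared by several genomic positions limit the separation of the TAS1 copies. Of the 21-nt sequences of each gene, 8.46% in TAS1A, 9.52% in TAS1B and 5.05% in TAS1C occur more than once in the genome, mostly in another TAS1 gene, against 0.493% in TAS2 and 0.108% in TAS3. These are shares of positions, not of reads. Counted from the cut in steps of 21 nt, register 6 of TAS1A, register 6 of TAS1B and register 3 of TAS1C have the same sequence. They lie in windows that held medians of 38.5%, 44.4% and 68.7% of the counts of these genes. The share of reads that fit several copies was not measured and can be larger. How such reads were assigned is not given in the sources used here, and strand was not kept, so that MIR5636, annotated on the opposite strand within TAS1B, and the end of AT2G39670, which overlaps TAS1C by 31 bp, cannot be separated from them.

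The windows of the 5 genes held a median of 2.37% of all counts in epiHybrids (1.53 to 2.78%), 1.89% in epiRILs (1.13 to 2.71%), and 1.98% and 1.69% in the pair of msCol libraries. The share was higher in the epiHybrid than in its father in 29 of 36 families. The share of windows of ribosomal, transfer, small nuclear and small nucleolar RNA genes, a sign of RNA breakdown, had a median of 18.1% in epiHybrids and 18.6% in epiRILs and was higher in the epiHybrid in 19 families. The share of microRNA gene windows was 15.7% and 15.6% (medians) and was higher in the epiHybrid in 15 families. The medians of epiHybrids and epiRILs thus lay close together in both shares. The pair of msCol libraries stood apart in the ribosomal, transfer, small nuclear and small nucleolar RNA share, with 16.3% and 23.6% (lower value first). For microRNA gene windows they had 13.6% and 14.7%. Whether RNA quality had a part in the TAS differences was not tested further.

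Levels of the genes are first given as CPM, the standard count unit scaled to the total of the library, per kb of the windows summed, a scale on which genes can be compared. In epiHybrids the medians were 8666 for TAS1A, 4872 for TAS1C, 3112 for TAS2, 1213 for TAS3 and 983 for TAS1B. The order was the same in epiRILs, with medians of 7071, 3993, 2618, 1012 and 675, and in both msCol libraries. TAS1A exceeded TAS1C, TAS1C exceeded TAS2 and TAS2 exceeded TAS3 in every one of the 74 libraries. TAS3 exceeded TAS1B in 32 of 36 epiHybrids and 35 of 36 epiRILs. In epiHybrids the ranges of all neighbours in this order overlapped across libraries, so that the order held within a library rather than between libraries. Among the TAS1 copies, TAS1A and TAS1B stood at the ends of the order.

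Nearly all counts of each gene lay in windows that reach the side of the predicted cut where the phased siRNAs are known to arise. Windows wholly on the far side of the cut (8 of 23 overlapping windows for TAS1A, 7 of 20 for TAS1B, 8 of 24 for TAS1C, 8 of 25 for TAS2 and 1 of 23 for TAS3) held a median of 0.0107% of the gene's counts in TAS1A, 0.61% in TAS1B, 0.405% in TAS1C, 0.0293% in TAS2 and 0.00544% in TAS3. The step was steep in TAS1A. Its window centred at -59.5 nt from the cut, which still reaches over it, held a median of 2205 CPM (TMM-normalised) in epiHybrids, while the next one, centred at -109.5 nt and wholly past the cut, held 0.764. In TAS3 most counts lay between the pair of sites, with a median of 1217 CPM in the window centred at -52.5 nt from the 3′ cut. The windows centred at 47.5 and 97.5 nt held 420 and 312 CPM, and that at 147.5 nt, wholly past the cut, held 0.325. The window at 97.5 nt reaches the cut with only its first bases. Reads that cross a window border appear to be counted in both windows, so that the edge in TAS3 was not resolved. A window centred at -352.5 nt, which reaches only the first bases of the 5′ site, still held 47.0 CPM. The same shape was found in epiHybrids, epiRILs and both msCol libraries.

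**Figure D1:**
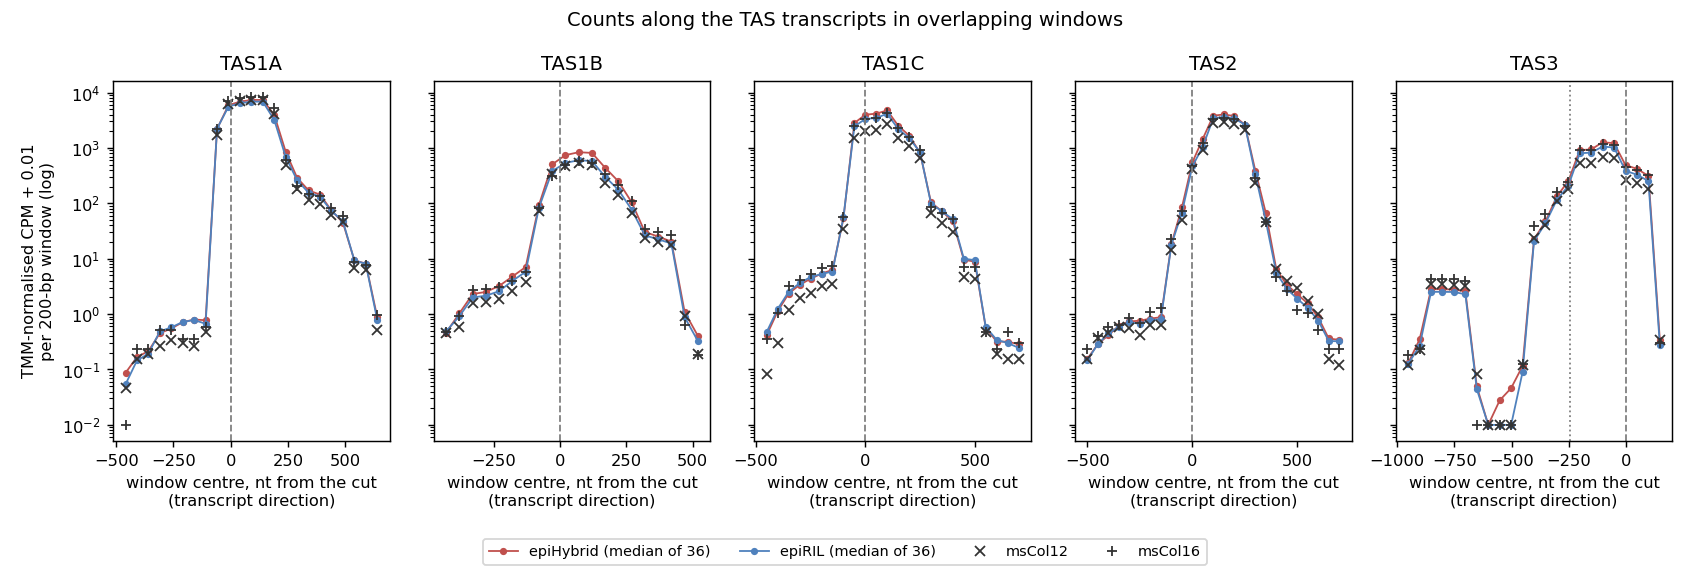
TMM-normalised CPM plus 0.01 (log axis) in each overlapping 200-bp window, against the distance of the window's centre from the predicted cut in the direction of the transcript. Red and blue points are medians of the 36 epiHybrids and 36 epiRILs, crosses and plus signs are the 2 msCol libraries, the dashed line marks the cut and the dotted line in TAS3 the 5′ miR390 site. Most counts stood on the 3′ side of the cut in TAS1 and TAS2 and between the pair of sites in TAS3. A window reaches 100 bp to either side of its centre, so that windows centred up to 97.5 nt past the TAS3 cut still reach it.

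Most counts of each gene fell into a few windows. In TAS1A the windows at 11722001 and 11721801 on chromosome 2 held medians of 59.9% and 38.5%, in TAS1B those at 18549601 and 18549401 on chromosome 1 held 52.4% and 44.4%, and in TAS1C those at 16537801 and 16537601 on chromosome 2 held 68.7% and 30.2%. In TAS2 the single window at 16539801 on chromosome 2 held 90.4%. In TAS3 the window at 5862201 on chromosome 3, which contains register 7, held 82.8%, and that at 5862001 held 17.0%. The shares of the TAS2 window were close, with medians of 90.0% in epiHybrids and 90.6% in epiRILs. Those of TAS1B differed more, with 45.7% and 43.1% in the window at 18549401, and the window at 18549601 held 57.3% in msCol12 and 46.3% in msCol16.

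Normalised with the TMM method of edgeR, the level of TAS1A ranged from 5892 to 17681 CPM in epiHybrids (median 10011) and from 3731 to 12915 in epiRILs (median 9041). The msCol libraries had 10521 (msCol12) and 12245 (msCol16). The ranges overlapped almost entirely. On this scale both msCol libraries stood above the median of the epiHybrids, while in CPM without the TMM factor msCol16 (8972) lay below it (10399).

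TAS1B ranged from 658 to 1552 CPM in epiHybrids (median 980) and from 308 to 1072 in epiRILs (median 706), with 601 and 680 in msCol12 and msCol16. Here 9 epiHybrids stood above the highest epiRIL, that of family 568, whose labels are in doubt, and 24 stood above the next one. TAS1C ranged from 4218 to 7116 CPM in epiHybrids (median 5699) and from 3057 to 5905 in epiRILs (median 4899), with 3160 and 4992 in msCol12 and msCol16. For TAS1C 13 epiHybrids stood above the highest epiRIL and 16 above the next one.

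TAS2 ranged from 2715 to 5514 CPM in epiHybrids (median 4212) and from 2528 to 5228 in epiRILs (median 3801), with 3052 and 3704 in msCol12 and msCol16. TAS3 ranged from 981 to 2174 CPM in epiHybrids (median 1448) and from 627 to 1560 in epiRILs (median 1213), with 839 and 1387 in msCol12 and msCol16. For TAS2 1 epiHybrid lay above the highest epiRIL (family 539) and 6 above the next one, and for TAS3 these numbers were 12 and 14. The lowest epiRIL of all 5 genes was that of family 469. The order of the msCol libraries depended on the scale: without the TMM factor (1.09 for msCol12 and 0.733 for msCol16) TAS1A had 11452 and 8972 CPM.

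**Figure D2:**
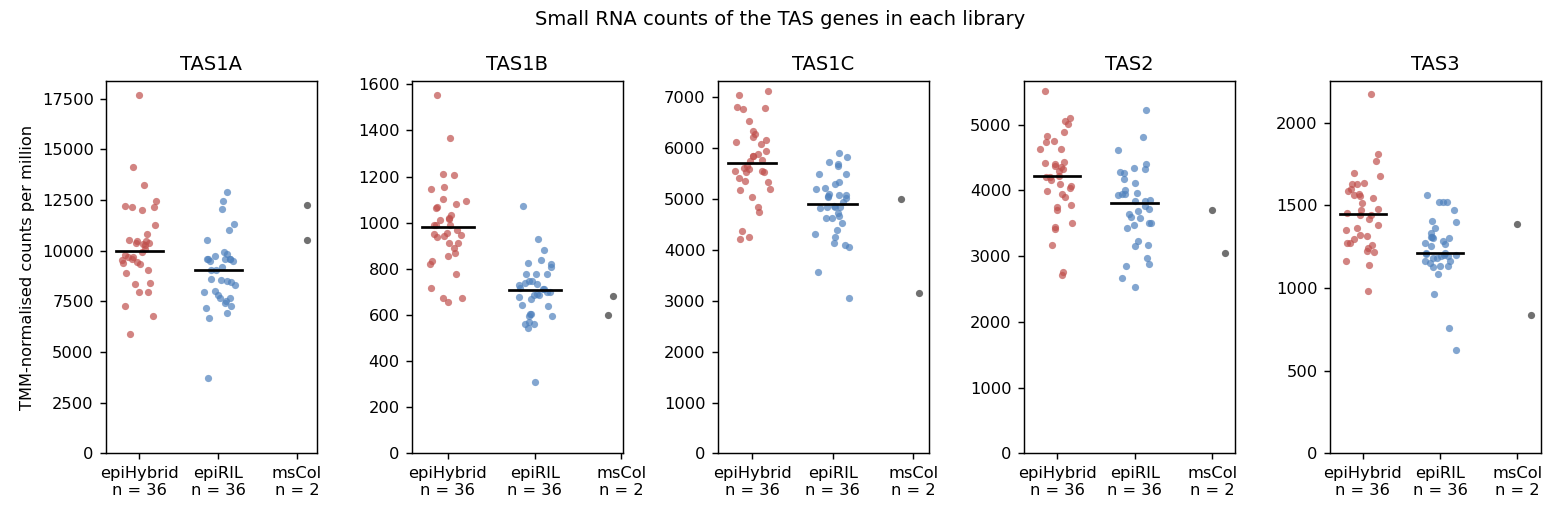
Level of each TAS gene in every library, as TMM-normalised CPM on a linear axis that starts at 0. Each point is a library, and the bar is the median of 36 (980 in epiHybrids and 706 in epiRILs for TAS1B). The groups overlapped for all 5 genes, and the lowest epiRIL in each panel is that of family 469, close to the next one for TAS2 (2528 and 2663).

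The comparison of epiHybrids with epiRILs, blocked by family, asks whether the F1 differs from its father. All 5 TAS genes were higher in epiHybrids (edgeR's quasi-likelihood test, Benjamini-Hochberg adjustment over all windows and gene sums), where 4.47% of the 174548 windows tested were called higher (7796 windows) and 3.57% lower (6231 windows). Scaled by library size alone, the split over all windows was 10147 higher and 4985 lower, and all 5 genes were still called. Among 2077 abundant windows (mean count of 1000 or more), 7.22% were called higher and 8.28% lower. These are single windows, while the sums of the 5 genes had means of 21540 (TAS1B) to 246749 (TAS1A) counts. The abundant windows are thus not a background of the genes' own abundance. The median log2 fold change was 0.25 over the 5 genes, 0.05 over all windows tested and 0.01 over the abundant windows. TAS1B was 1.41-fold higher (log2 0.50 ± 0.07 SE, adjusted p = 1.5e-06). TAS1C was 1.19-fold higher (log2 0.25 ± 0.04, adjusted p = 0.000105) and TAS3 1.2-fold higher (log2 0.26 ± 0.06, adjusted p = 0.00161). The smallest differences were those of TAS1A (1.15-fold, log2 0.21 ± 0.06, adjusted p = 0.0303) and TAS2 (1.13-fold, log2 0.18 ± 0.05, adjusted p = 0.0191).

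The calls of TAS1A and TAS2 rested on family 469, without which the adjusted p (same test) was 0.0596 for TAS1A (log2 0.15) and 0.0618 for TAS2 (log2 0.14), while TAS1B, TAS1C and TAS3 were still called (log2 0.44, 0.21 and 0.21). With median-of-ratios size factors the adjusted p of TAS1A was 0.0581 in the same test (log2 0.18), and with windows that start 50 bp further on it was 0.175 (log2 0.14). Of 29 windows of the genes that could be tested, 12 were called higher and 0 lower. These included the windows that hold most counts of TAS1B, TAS1C, TAS2 and TAS3, but not the most abundant one of TAS1A (log2 0.15 ± 0.07, adjusted p = 0.166).

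In the single families the epiHybrid exceeded its father for TAS1B in 33 of 36 families, for TAS1C in 32, for TAS3 in 28, for TAS2 in 26 and for TAS1A in 24. All 5 genes were higher in 17 families, 4 in 10, and fewer in the rest. The log2 ratio of epiHybrid to epiRIL ranged for TAS1B from -0.18 to 1.91, with a median of 0.45. In family 469 the epiHybrid had 1156 CPM of TAS1B and the epiRIL 308, the largest difference of that gene. In family 568 alone the library labelled epiHybrid was below the library labelled epiRIL for all 5 genes, and in family 12 it was below for TAS1A, TAS2 and TAS3. These are the families whose libraries stood in the opposite order around MS1. Families whose libraries stood in the order of their labels could also have few higher genes. The epiHybrid was higher for 1 gene in family 424 and for 2 in families 102, 158 and 539, as in family 12. Without families 12 and 568 all 5 genes were called. Their log2 fold changes were then 0.21 (TAS1A), 0.51 (TAS1B), 0.25 (TAS1C), 0.18 (TAS2) and 0.28 (TAS3).

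**Figure D3:**
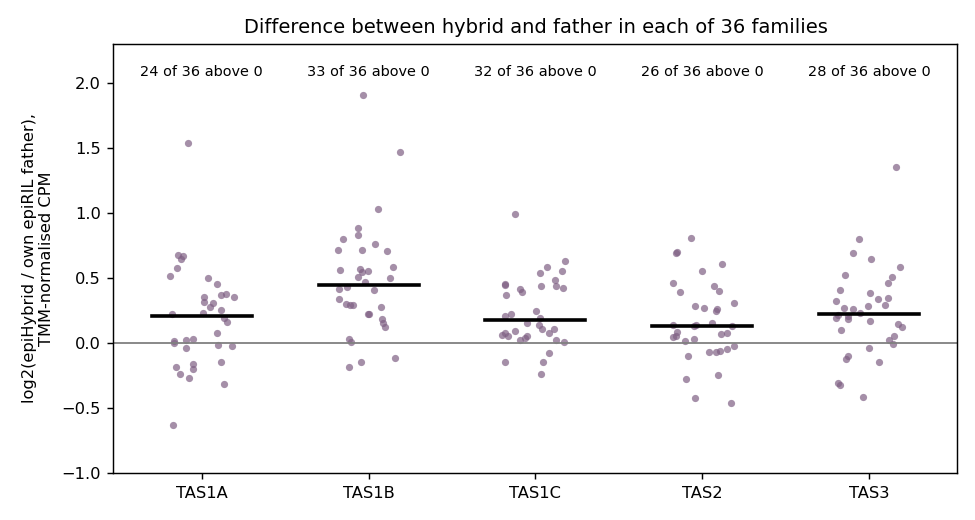
Log2 ratio of the TMM-normalised level in the epiHybrid to that in its own epiRIL father, for each TAS gene. Each point is 1 of 36 families, and the bar is the median, 0.45 for TAS1B. TAS1B lay above 0 in 33 families and TAS1A in 24, and the highest point of each gene is family 469.

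Against the mid-parent value, the mean of the epiRILs and msCol on the log scale in a model of all 74 libraries, TAS1B and TAS1C were higher in epiHybrids, where 0.749% of 174612 windows were called higher (1307 windows) and 0.33% lower (577 windows), and 3.08% of the abundant windows were called higher. Scaled by library size alone, which moved the median log2 difference of all windows from 0.03 to 0.13, the split was 3931 higher and 359 lower, and TAS2 and TAS3 were called as well. TAS1B was 1.46-fold higher (log2 0.55 ± 0.12 SE, adjusted p = 0.00346, edgeR) and TAS1C 1.29-fold higher (log2 0.36 ± 0.08, adjusted p = 0.00776, edgeR). TAS3 (log2 0.31 ± 0.10, adjusted p = 0.0958), TAS2 (log2 0.23 ± 0.09, adjusted p = 0.238) and TAS1A (log2 0.02 ± 0.12, adjusted p = 0.981) did not pass the edgeR test. TAS1B exceeded both its father and the mean of the msCol plants in 33 of 36 families, TAS1C in 32, TAS3 in 28, TAS2 in 25 and TAS1A in 7. Both calls depended on the msCol libraries. Without msCol12 no TAS gene was called (adjusted p = 0.147 for TAS1B at log2 0.51 and 0.488 for TAS1C at log2 0.22, edgeR), and without msCol16 TAS1B was not (adjusted p = 0.0509, log2 0.60, edgeR) while TAS1C and TAS3 were.

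Between the parents, no TAS gene passed the edgeR test, nor did DESeq2 or voom call one. Of their 29 windows 0 were called in edgeR, and 5 had an unadjusted p below 0.05. Over all windows 1.06% (1855) were higher in epiRILs than in msCol and 0.856% (1495) lower, or 2727 and 1093 when scaled by library size alone. TAS1A had a log2 difference of -0.35 (95% interval -0.74 to 0.05), and those of TAS1B (0.14, interval -0.25 to 0.52), TAS1C (0.26, interval -0.02 to 0.54), TAS2 (0.15, interval -0.17 to 0.47) and TAS3 (0.15, interval -0.18 to 0.49) were on the other side of 0. No unadjusted p of the 5 genes was below 0.05, the lowest being 0.0766 for TAS1C in the edgeR fit. With 2 msCol libraries these intervals allow differences as large as those between epiHybrids and epiRILs. The fit that called TAS1B and TAS1C against the mid-parent value shares the epiRIL and msCol libraries with this one.

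The microRNAs that trigger the cut did not pass the test. The sum of the windows of MIR173 had 212 to 428 TMM-normalised CPM in epiHybrids (median 273) and 229 to 417 in epiRILs (median 286), with 208 and 326 in msCol12 and msCol16. Its log2 difference between epiHybrids and epiRILs was -0.03 (95% interval -0.14 to 0.08, adjusted p = 0.832, edgeR). MIR390A had medians of 1047 in epiHybrids and 999.5 in epiRILs (log2 0.05, interval -0.08 to 0.17), and MIR390B medians of 425 and 496 (log2 -0.06, interval -0.26 to 0.14). MIR173, MIR390A, MIR390B, MIR161 (another microRNA that acts on PPR mRNAs) and MIR828A (the trigger of TAS4) missed the test in edgeR, DESeq2 and voom in all 3 comparisons, and 1 of the 5 had an unadjusted p below 0.05 in edgeR, against the mid-parent value.

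Set against its trigger in the same library, a ratio in which library size and scaling cancel, each TAS gene was still higher in epiHybrids. TAS1B had a median of 3.47 counts per MIR173 count in epiHybrids (1.88 to 4.69) and 2.39 in epiRILs (1.32 to 3.15). The log2 ratio was higher by 0.53 ± 0.08 (SE) in epiHybrids, in 33 of 36 families (2-sided permutation of signs over families, p = 1e-05, the smallest that 100000 permutations give). For TAS1C the difference was 0.28 ± 0.06 (29 families, permutation p = 3e-05), for TAS1A 0.24 ± 0.07 (23 families, permutation p = 0.00297) and for TAS2 0.21 ± 0.06 (28 families, permutation p = 0.00166). TAS3 was higher by 0.21 ± 0.07 relative to MIR390A (23 families, permutation p = 0.00424) and by 0.32 ± 0.09 relative to MIR390B (25 families, permutation p = 0.0019). These 6 ratios were added after the levels had been seen, and their p-values were not adjusted.

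The other TAS genes, TAS3B, TAS3C and TAS4, had fewer counts, and 0 of the 3 were called in any comparison by edgeR, DESeq2 or voom, with 1 unadjusted p below 0.05 in edgeR (TAS3C). TAS4, whose siRNAs act on MYB genes of the anthocyanin pathway, had medians of 76.4 TMM-normalised CPM in epiHybrids and 71.6 in epiRILs (log2 0.08, interval -0.13 to 0.29). TAS3C had a log2 difference of 0.21 (interval 0.03 to 0.40, adjusted p = 0.177, edgeR) and TAS3B of 0.11 (interval -0.11 to 0.33). These intervals include the differences found for TAS1C, TAS2 and TAS3. Of the TAS4 targets MYB75, MYB90 and MYB113, 0 of 3 were called in any comparison by edgeR or voom, and 1 (MYB75) had an unadjusted p below 0.05 in edgeR, between epiHybrids and epiRILs. DESeq2 called none either, but gave no adjusted p for MYB90 in the comparisons that use msCol.

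Small RNAs on target genes were counted as well, since targets of TAS1 and TAS2 are known to give rise to secondary siRNAs themselves. Of 18 listed target genes 16 could be tested, and 13 of them, all in the PPR gene region of chromosome 1, were higher in epiHybrids than in epiRILs, with 0 lower and a median log2 fold change over the 16 of 0.38. Over all windows 4.47% were called higher in this comparison, with a median of 0.05. Among the abundant windows 7.22% were called higher, with a median of 0.01. Both shares are of single windows, while the targets are sums over whole genes, so that the units differ. AT1G62914 had medians of 176 TMM-normalised CPM in epiHybrids (108 to 245) and 120 in epiRILs (69.2 to 177), with 148 and 244 in msCol12 and msCol16. It was 1.42-fold higher in epiHybrids (log2 0.51 ± 0.06, adjusted p = 1.69e-07, edgeR), and it was the only target gene of this list called between the parents, lower in epiRILs than in msCol (log2 -0.67 ± 0.18, adjusted p = 0.0286, edgeR). There DESeq2 called 4 of the 14 targets it tested and voom 0 of 16, and 8 of the 16 had an unadjusted p below 0.05 in edgeR. Over the 16 targets the median log2 difference was -0.39 between epiRILs and msCol, and 0.17 between epiHybrids and the mid-parent value. AT1G62914 lay between its father and the mean of msCol in 27 of 36 families and above both in 7, AT1G63130 between them in 10 and above both in 24. AT1G63130 had medians of 331 in epiHybrids and 237 in epiRILs and was 1.4-fold higher (log2 0.49 ± 0.06, adjusted p = 4.22e-07, edgeR).

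The other targets with the highest mean CPM, AT1G63080, AT1G63150 and AT1G62910, had medians of 344, 269 and 216 CPM in epiHybrids and 261, 206 and 167 in epiRILs. Against the mid-parent value 0 of the 16 targets were called in edgeR or voom and 0 of 14 in DESeq2, which gave no adjusted p for the others, and 3 had an unadjusted p below 0.05 in edgeR. The PPR genes lie close together and are similar in sequence, so that reads can be shared between them and the 13 calls are not independent. The targets HTT2 (log2 -0.47, interval -0.88 to -0.06, adjusted p = 0.184, edgeR), AT1G51670 and AT1G63070 were not called.

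**Figure D4:**
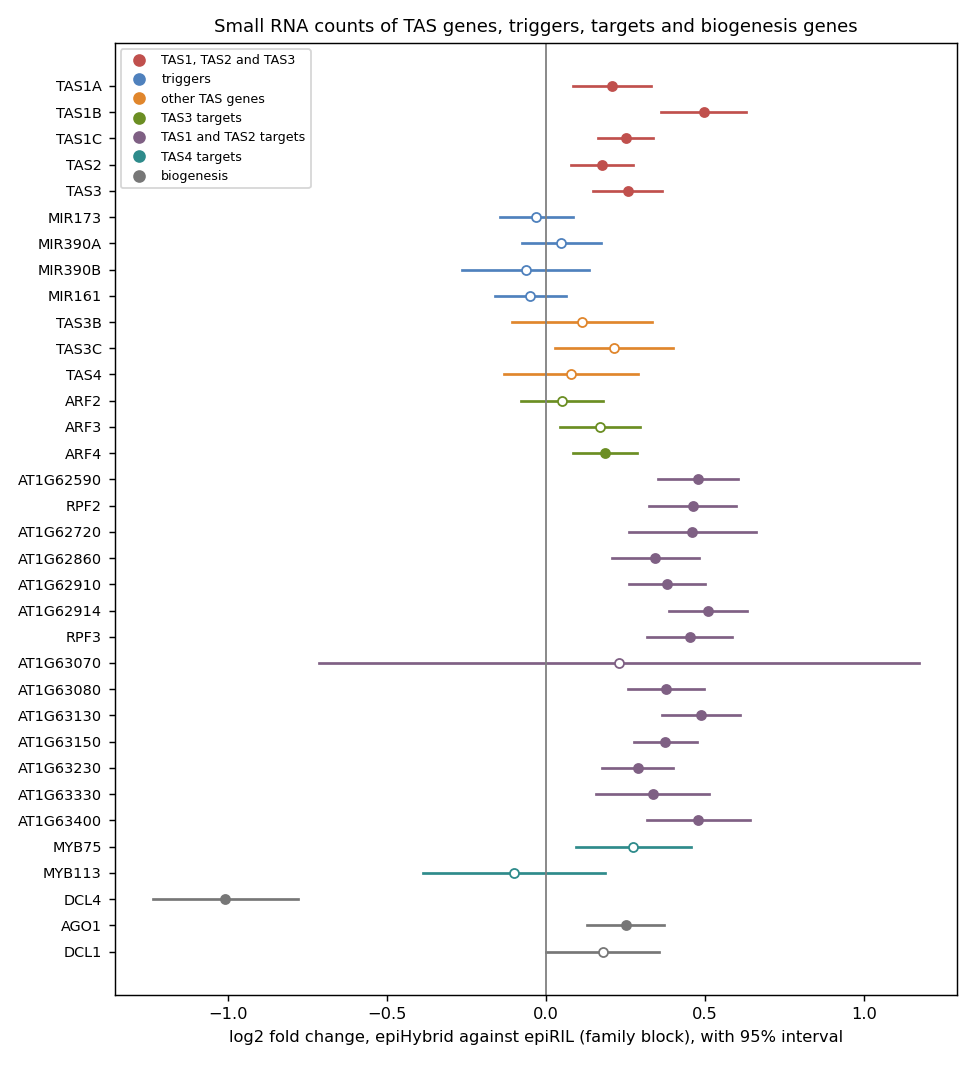
Log2 fold change of small RNA counts between epiHybrids and epiRILs in the fit blocked by family, for the TAS genes, their trigger microRNAs, further TAS genes, targets and biogenesis genes with a mean of at least 20 counts in a library. Bars are 95% intervals and filled points passed an adjusted p of 0.05 in edgeR. The TAS1, TAS2 and TAS3 genes lay between 0.18 and 0.50, the triggers MIR173, MIR390A and MIR390B between -0.06 and 0.05, and DCL4 at -1.01.

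Small RNAs at the TAS3 targets were sparser. ARF4 had medians of 29.6 TMM-normalised CPM in epiHybrids (17.7 to 44.5) and 26.7 in epiRILs (17.8 to 37.3), with 34.5 and 57.8 in msCol12 and msCol16. It was higher in epiHybrids than in epiRILs (log2 0.19 ± 0.05, adjusted p = 0.0173, edgeR) and lower in epiRILs than in msCol (log2 -0.79 ± 0.17, adjusted p = 0.0025, edgeR). ARF3 (log2 0.17 ± 0.06, adjusted p = 0.0968, edgeR) and ARF2 (log2 0.05 ± 0.07, adjusted p = 0.726, edgeR) were not called, nor was either against msCol.

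Among the genes of tasiRNA biogenesis, small RNA counts do not measure mRNA and say nothing of the protein. The following differences are between epiHybrids and epiRILs. AGO1, the ARGONAUTE that holds miR173 and most tasiRNAs, had a log2 difference of 0.25 ± 0.06 (adjusted p = 0.00615, edgeR), with 10.5 to 21.2 CPM in epiHybrids and 9.26 to 19.4 in epiRILs. SGS3 had 0.51 ± 0.14 (adjusted p = 0.0133, edgeR) at medians of 0.597 and 0.404 CPM, which are means of 15.9 and 11.1 counts in a library. DCL4, the Dicer of the pathway, was the only gene of the list called lower (log2 -1.01 ± 0.12, adjusted p = 5.1e-08, edgeR), with 2.27 to 10.9 CPM in epiHybrids (median 3.84) and 4.6 to 12.8 in epiRILs (median 8.57). The highest epiHybrid was that of family 568 and the lowest epiRIL that of family 12, the families with doubtful labels. Without both, the ranges were 2.27 to 10.7 and 5.27 to 12.8 CPM and still overlapped, and the log2 difference was -1.13 ± 0.09 (adjusted p = 8.55e-12, edgeR). DCL4 and SGS3 lie 505 and 576 kb from MS1 on chromosome 5, in the region where msCol carries Ler sequence, so that a difference in the sequence of the maternal copy and a difference in small RNA level cannot be told apart there. RDR6, AGO7, DCL1, DRB4 and HEN1 were not called. Against the mid-parent value 0 of the 8 genes were called, and 1 had an unadjusted p below 0.05 in edgeR. Between the parents 0 of 8 were called, and 3 had an unadjusted p below 0.05 in edgeR. For AGO1, SGS3 and DCL4 the log2 differences were -0.004, 0.01 and -0.41 against the mid-parent value. Between epiRILs and msCol they were -0.47, -0.93 and 1.06.

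Across lines the TAS genes varied together. After the mean of each group was subtracted from log2 levels, Pearson's r over the 72 family libraries was 0.77 between TAS1A and TAS1B, 0.75 between TAS1B and TAS1C and 0.74 between TAS1C and TAS2. TAS3, with another trigger, still had r = 0.70 with TAS1C and 0.66 with TAS2, but 0.34 with TAS1A. All of these libraries share the scaling of their own total, and the TAS1 copies share some reads. With the trigger microRNAs r was lower, from 0.24 (TAS1A) to 0.47 (TAS1C) for MIR173, while TAS3 had 0.52 with MIR390A and 0.54 with MIR390B. Within epiHybrids and within epiRILs, TAS1A and TAS1B had r = 0.68 and 0.85.

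**Figure D5:**
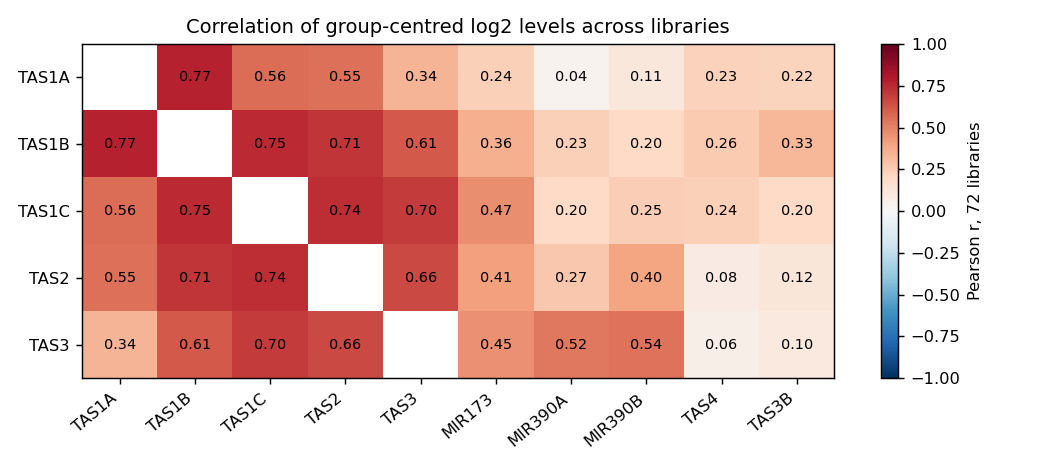
Pearson's r between log2 levels of the TAS genes (rows) and of the TAS genes, trigger microRNAs, TAS4 and TAS3B (columns), over 72 libraries after the mean of epiHybrids and of epiRILs was subtracted. Values run from 0.04 (TAS1A and MIR390A) to 0.77 (TAS1A and TAS1B), and r between TAS genes exceeded r with their triggers except for TAS1A and TAS3 (0.34).

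The level in the father said little about the level in the hybrid. Over 36 families r between epiRIL and epiHybrid was 0.21 for TAS1A, -0.12 for TAS1B, 0.09 for TAS1C, 0.16 for TAS2 and -0.02 for TAS3. Over 22414 windows whose mean count reached 100 the median r was 0.43. The standard deviation of the log2 level among epiRILs was 0.32, 0.29, 0.20, 0.24 and 0.25 in the same order, below the median of 0.40 over those windows.

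Outside these genes, windows with the most similar pattern (r of group-centred log2 levels over 72 libraries, among 104323 windows whose mean count reached 10) were the following. For TAS1B the leading window (chr2:9942201-9942400, r = 0.82) holds MIR844, and the next ones hold the PPR gene AT1G63150 (chr1:23420201-23420400, r = 0.73) and MIR863 (chr4:7846601-7846800, r = 0.73). For TAS1C they were that of MIR844 (r = 0.70), a window of AT1G63130 that also holds MIR5652 (chr1:23413401-23413600, r = 0.69) and 1 in AT1G50440 with MIR5663 (chr1:18686801-18687000, r = 0.68). For TAS2 they were the window of MIR5663 (r = 0.73), 1 in AT5G38850 (chr5:15555601-15555800, r = 0.70) and 1 near AT5G55010 (chr5:22322801-22323000, r = 0.70). TAS1A was closest to the window of AT5G38850 (r = 0.73), that of MIR158a (chr3:3366401-3366600, r = 0.71) and 1 near AT1G47317 (chr1:17346001-17346200, r = 0.71). TAS3 was closest to a window of AT5G60280 that also holds a transfer RNA gene (chr5:24262401-24262600, r = 0.73), to that of MIR165a (chr1:78801-79000, r = 0.72) and to a second window of AT1G63130 (chr1:23414001-23414200, r = 0.71). The 99th percentile of r over all windows compared was between 0.36 and 0.43 for the 5 genes.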

How the data were processed

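Small RNA of aerial rosettes was sequenced in 74 libraries. The authors ran ShortStack with default parameters on clean reads against TAIR10, with the search for microRNA genes turned off, over 200-bp regions in 50-bp steps, separately for regions of context CG, CHG and CHH. The deposited values are raw counts of reads of all lengths, with no normalization. The ShortStack version, the treatment of reads with several positions and the removal of duplicates are not given in the sources used here. A read that crosses the border of a window appears to be counted in both windows, so that the choice of window starts moves a level.

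CHH regions were used, because this table covers all 5 genes. A gene's count is the sum of the non-overlapping windows (start 1 modulo 200) that overlap it. Tests used edgeR 4.0.16 in R 4.3.3 (TMM factors, glmQLFit with legacy=FALSE, glmQLFTest) on windows whose mean count was 2 or more together with the gene sums, with Benjamini-Hochberg adjustment over all of them at 0.05. The fit of epiHybrids and epiRILs was blocked by family, since family numbers join each F1 to its own father. The mid-parent and parental comparisons used 1 model of all 74 libraries without a block. The mother of each family is not given, and the known pairing with the father was not used in this model. Its mid-parent value is therefore that of the groups, not of each family. p-values measure the spread between lines of pooled rosettes, except that the 2 msCol libraries are of 1 line. Libraries had 20995764 to 27084303 counts, and the 5 genes had means of 21540 (TAS1B) to 246749 (TAS1A) counts per library. The fits were tested on simulated counts in which 200 of 10000 windows changed 2-fold, with no family effect. That simulation does not cover differences as small as those of the TAS genes. Median-of-ratios factors, library size, other filters, other window starts, windows within the genes, the other contexts, DESeq2 1.42.0 (on 10000 windows and the gene sums), voom in limma 3.58.1, a fit without the block, and fits without families 12 and 568 or without either msCol library were also run. Leaving out family 454, family 469 or the highest epiRIL and the ratio to the trigger were added after the data had been seen.

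The genes, lists and tests were chosen with earlier results of these data known. The text names the 5 genes, their triggers, in each other list the most abundant and called genes, and for each gene the 3 windows of most similar pattern. Levels are CPM, and descriptive values came from Python 3.11.15 (pandas 2.3.3 and NumPy 2.4.6), with a pseudocount of 0.5 CPM on the log2 scale. Target sites were found by scoring every position of a transcript, and microRNA positions came from the RefSeq annotation, whose chromosome lengths equal the ends of the deposited regions.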

Additional observations from a re-analysis of the deposited data

How the results depend on the processing

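TAS1B, TAS1C, TAS2 and TAS3 were higher in epiHybrids than in epiRILs in every alternative run, as was TAS1A, and TAS1B and TAS3 passed the test in all of the refits. The number of the 5 genes called was 3 in CG regions, 2 in CHG regions and 3 without family 469. TAS1A was the least stable, called in 10 of 18 settings, against 14 for TAS2, 16 for TAS1C and 17 for TAS1B. These settings include the ratio to the trigger, which has no adjusted p. The CG and CHG tables hold fewer windows of these genes, for TAS1A 3 and 1. Against the mid-parent value the number called was 4 when scaled by library size alone, 1 in CHG regions and between 0 and 2 when 1 msCol plant was left out. TAS1A lay at a log2 difference of -0.02 there with median-of-ratios size factors, with DESeq2 and with a minimum mean of 10 counts (-0.02043, -0.02043 and -0.01868), at -0.003097 without family 454 and between -0.03439 and 0.08011 when 1 msCol plant was left out. Its highest value there was 0.6288 (adjusted p = 0.0671 in edgeR), in CHG regions, where it has 1 window with a mean of 17.6 counts. Between the parents it was 0.96 in CHG regions, and when 1 msCol plant was left out TAS1C lay between -0.03514 and 0.5998 and TAS3 between -0.1673 and 0.5343, the lower values being those without msCol12. Other causes of these shifts were not tested.

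With no replicate block, 4094 windows were called higher and 3715 lower between epiHybrids and epiRILs, in place of 7796 and 6231, and 4 TAS genes were, TAS1A having an adjusted p of 0.0647 in edgeR. Against the mid-parent value all windows gave 370 higher and 208 lower with no filter, 998 and 782 with median-of-ratios factors, 490 and 326 without msCol12 and 858 and 258 without msCol16.

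Levels moved with the window starts. With starts shifted by 2 and 3 steps of 50 bp, TAS1A had median CPM of 7890 and 8136 in epiHybrids, 6517 and 6698 in epiRILs and 6880 and 7124 in msCol. TAS1C had 4996 in epiHybrids and 4138 in epiRILs with a shift of 2 steps, and in msCol 3355, 3029 and 3109 with shifts of 1, 2 and 3 steps and 4076 with TMM. TAS3 had 1713 in epiHybrids and 1136 in msCol with a shift of 3 steps, and 1113 in msCol with TMM. In non-overlapping windows the share past the cut was 0.41% in TAS1B, 0.124% in TAS1C and 0.0225% in TAS3.

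With 2 msCol libraries, whose order differs between CPM and TMM-normalised CPM, comparisons that use the mother are the least certain. Read length, strand and shared reads could not be separated.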
